A study of Mus musculus with 8 samples.

Results

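Klb, Fgf21 and the genes of 4 FGF receptors and 4 further FGF ligands were followed in the interscapular brown fat of cold-exposed mice, 10 genes of the 54532 in the deposited count table. The members were chosen by gene symbol, and all 10 were found, each on 1 row. Klb led to this family because earlier results of the same data had shown its difference between the genotypes. Every genotype difference of the 10 genes is therefore given as a description, without a p-value, and supports nothing further. The control group was 4 male Pparg-flox mice, and the other was 4 male Pparg-flox mice that also carried Myl1-Cre. Both groups thus carried floxed Pparg, the gene of a nuclear receptor needed to form fat cells. The mice were 7 months old, ate normal chow and spent 24 h at 4 °C in metabolic cages before the tissue was taken. The study addresses how far adult brown fat relies on fat cells that arise from Myl1-expressing progenitors.

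Myl1 is a myosin light chain gene, and Cre made from it is meant to act in a part of the tissue's cells. The cells in which Cre acted were not measured, and each library is from the whole depot. Fewer cells of a type and less RNA per cell cannot be told apart in such samples. The libraries held 12226608 to 19268945 counts. The target Pparg was higher in the mice labelled knockout, at 267 to 320 CPM (counts scaled to a common library size, with TMM factors) against 186 to 202 CPM in the control. Counts per gene take in exons that Cre leaves in place, so this RNA checks the label only in part, and the group is called the mice labelled knockout. All 10 genes listed as brown fat cell markers had counts in the libraries, with Ucp1 at 7914 to 12804 CPM. The list includes Adipoq, Fabp4 and Plin1, which are not specific to brown fat cells. The markers of skeletal muscle, which lies beside this depot, summed to 9873 to 18344 CPM in the mice labelled knockout and 5243 to 13379 CPM in the control. Labelled knockout 4, at 9873 CPM, lay within the control range. All 16 muscle markers had a log2 fold change above 0, with a median of 0.68, where 49.7% of all tested genes lay below 0. Myl1, which was not among these markers, was at 367 ± 105 CPM in the mice labelled knockout and 378 ± 68.8 CPM in the control.

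FGF21 is an endocrine member of the FGF family. It binds heparan sulfate weakly, circulates, and signals only in cells that make both an FGF receptor and the co-receptor beta-klotho, which Klb encodes. Fat is one of its main targets, through the receptor encoded by Fgfr1, and brown fat can itself make FGF21 in the cold. Most other FGFs act near the cells that release them, held by heparan sulfate, and need no klotho protein. The receptors are tyrosine kinases that signal mainly through the adaptor FRS2 to the ERK kinases.

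The promoters of Klb and Fgf21 are shown because these are the co-receptor for which the family was chosen and its hormone. For Fgfr1 no RefSeq promoter was found, and that of Fgf1 was left out. RefSeq promoter sequences (GRCm38.p6, from 250 bases before to 50 bases after a start site) were used for 8 of the 10 genes. That of Klb is chr5:65348161-65348460 on the plus strand and that of Fgf21 is chr7:45615441-45615740 on the minus strand, both read 5′ to 3′ along the gene.
Klb: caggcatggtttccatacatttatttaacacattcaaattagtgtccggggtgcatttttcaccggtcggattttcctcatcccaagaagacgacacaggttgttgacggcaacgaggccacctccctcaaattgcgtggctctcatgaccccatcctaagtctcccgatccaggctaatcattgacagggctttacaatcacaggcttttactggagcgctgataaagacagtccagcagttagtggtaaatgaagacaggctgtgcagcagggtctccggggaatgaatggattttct
Fgf21: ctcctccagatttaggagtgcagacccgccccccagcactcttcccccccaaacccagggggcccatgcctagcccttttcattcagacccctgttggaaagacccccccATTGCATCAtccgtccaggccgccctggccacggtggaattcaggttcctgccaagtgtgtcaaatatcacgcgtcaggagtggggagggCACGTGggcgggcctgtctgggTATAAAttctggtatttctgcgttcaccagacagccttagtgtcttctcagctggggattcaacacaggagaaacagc
Capitals mark matches to any of 5 motifs searched on both strands. In Fgf21 they are, in order, ATTGCATCA, which is the C/EBP-ATF composite element TGATGCAAT read on the other strand, the E-box CACGTG, and the TATA box TATAAA. These start 140, 50 and 28 bases before the start site. The Klb window had no match to these 3 motifs. It also had none to the nuclear receptor half-site AGGTCA or to AGGTCANAGGTCA, a pair of half-sites with 1 base between them, the kind that PPAR and RXR bind. Among 32851 RefSeq promoters of the same length, TGATGCAAT occurred in 0.192%, CACGTG in 7.15%, TATAAA in 13.6%, AGGTCA in 16.3% and the paired form in 0.0396%. Overlaps between motifs count for both. A match is a description of the letters and not a binding site, and an absent match says only that these letters are not in this window.

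Within the control mice, which the genotype difference does not enter, the 10 genes were ordered by their level per length, as CPM per kilobase (kb) of annotated exon. Fgf1, a paracrine ligand that can activate all of the FGF receptors, stood first at 13.8 ± 1.91 CPM per kb (SD, n = 4), between 11.3 and 15.7. Fgfr1 followed at 7.13 ± 0.446 and Klb at 6.92 ± 1.38 CPM per kb. The ranges of Fgfr1 (6.78 to 7.77) and Klb (5.29 to 8.43) overlapped, so these 2 were not separated, while Fgf1 lay above both in every control mouse. With the length of the longest transcript in place of all exons, Fgfr1 was at 14.0 and Klb at 8.89 CPM per kb, so the distance between them depends on the length used.

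Fgf21 came next at 2.20 ± 1.47 CPM per kb, with the widest spread relative to its mean, from 1.11 to 4.27. Fgfr3 (1.16 ± 0.251), Fgf10 (1.13 ± 0.562), Fgf9 (1.11 ± 0.508) and Fgf2 (0.966 ± 0.147) lay close together on the same scale, with overlapping ranges from Fgf21 down to Fgf2. Fgfr2, at 0.324 ± 0.0671 CPM per kb, lay below all of these in each mouse. Fgfr4 was last at 0.0521 ± 0.0334 CPM per kb, resting on 10 counts in the 4 control libraries together. Fgfr1 made up 82.2 ± 2.55% of the summed level per length of the 4 receptors in the control and 79.9 ± 2.43% in the mice labelled knockout. It was therefore the main receptor transcript of the tissue in both groups. The gene-level counts do not tell the b and c splice forms of the receptors apart, which decide which ligands bind.

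**Figure D1:**
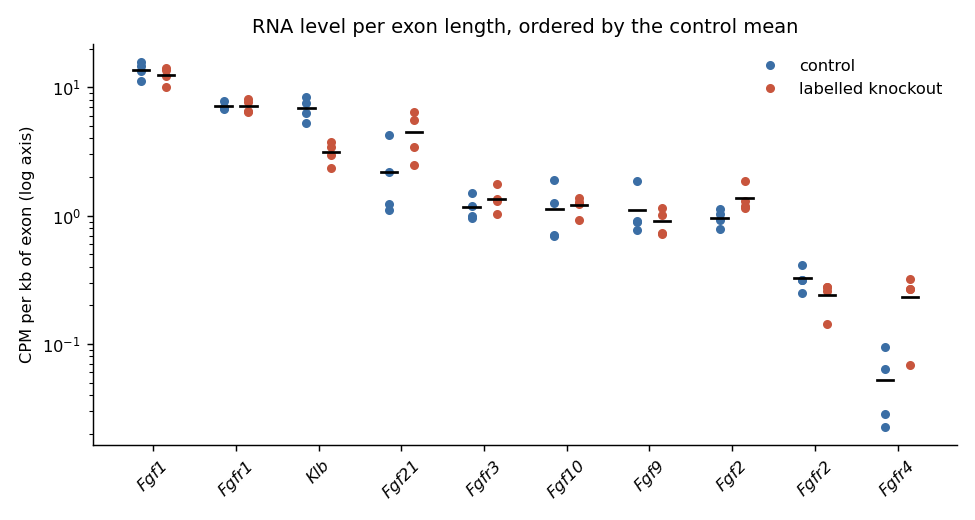
RNA level per exon length of the 10 genes in each mouse (CPM per kb of exon, log axis), ordered by the control mean. Points are mice and short lines group means of 4. Fgf1, Fgfr1 and Klb lead in the control, and in the mice labelled knockout Klb lies under Fgf21 by mean, at 3.12 against 4.46 CPM per kb.

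Klb (ENSMUSG00000029195, GRCm38 chromosome 5, 65348314 to 65384007, plus strand) stood at 38.3, 34.7, 24.1 and 28.9 CPM in control mice 1 to 4. In the mice labelled knockout 1 to 4 it stood at 10.7, 13.4, 15.6 and 17.1 CPM. The groups did not overlap, and the highest mouse labelled knockout lay under the lowest control. These values rest on 302 to 692 counts per library in the control and 136 to 284 in the mice labelled knockout. The log2 fold change was -1.14 ± 0.17 (SE), and this is the difference for which the gene was chosen. No exon of another annotated gene overlaps those of Klb.

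The level of Klb was also set against other transcripts of the same library, which removes the library scaling. The ratio of Klb to Fgfr1, both per length, was 1.23, 0.981, 0.78 and 0.896 in control mice 1 to 4. It was 0.306, 0.366, 0.532 and 0.569 in the mice labelled knockout 1 to 4. The groups did not overlap, with means of 0.971 ± 0.189 and 0.443 ± 0.127 (SD, n = 4). The mean log2 CPM of the 10 brown fat cell markers was also lower in the mice labelled knockout, at 9.33 ± 0.171 against 9.66 ± 0.108. Relative to that mean, Klb stood at -5.51 ± 0.155 in the mice labelled knockout and -4.70 ± 0.25 in the control on the log2 scale. Since Klb was chosen for its difference, nothing is read from this comparison. The log2 fold changes of the 10 markers had a median of -0.27, with 9 below 0. Lowest was Elovl3, whose exons overlap a gene on the opposite strand, at -0.95 ± 0.24 (SE). Highest was Cox8b, the 1 above 0, at 0.13 ± 0.12. Both were named after their values were seen. With the mean log2 CPM of 16 skeletal muscle markers as a covariate the log2 fold change of Klb was -0.98 ± 0.19, and it no longer passed. The muscle marker mean was itself higher in the mice labelled knockout, at 9.40 against 8.72. In this fit the genes passing over the whole table fell from 53 to 21. It cannot separate muscle content from genotype, so the part of muscle content in the difference was not tested.

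**Figure D2:**
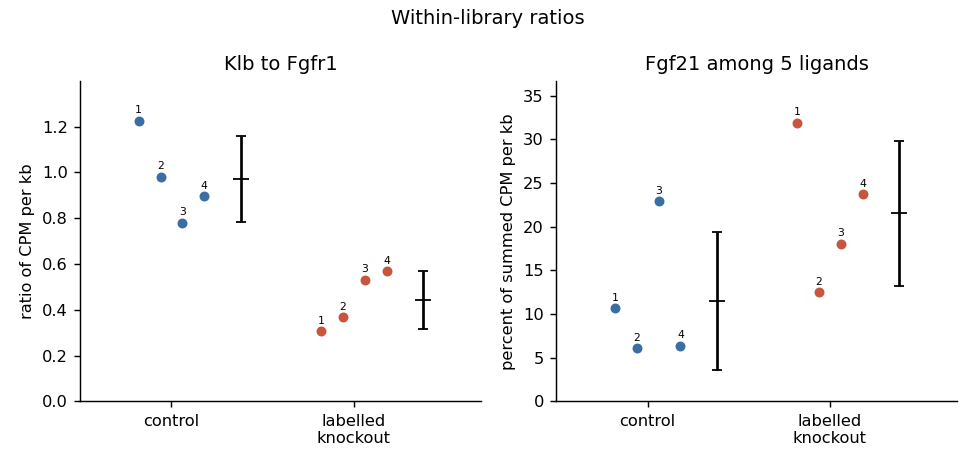
Left, ratio of Klb to Fgfr1 within each library (CPM per kb of exon). Right, share of Fgf21 in the summed level per length of Fgf1, Fgf2, Fgf9, Fgf10 and Fgf21 (percent). Numbered points are mice, and bars give the mean ± SD of 4. The Klb ratio is at most 0.569 in the mice labelled knockout and at least 0.78 in the control, while the Fgf21 shares overlap.

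For none of the 4 receptors did the groups lie apart. Fgfr1 (chromosome 8, 25513654 to 25575718), the receptor that pairs with beta-klotho in fat, stood at 67.9, 76.7, 66.9 and 69.9 CPM in the control mice. It was at 76.2, 79.7, 63.6 and 65.2 CPM in the mice labelled knockout. The groups overlapped fully, with a log2 fold change of 0.02 ± 0.10 (SE), whose sign changed with the library left out. Fgfr2 (chromosome 7, 130162451 to 133123350), which in its b form binds FGF10, was at 4.27, 3.26, 3.27 and 2.59 CPM in the control and 2.69, 2.88, 1.46 and 2.89 CPM in the mice labelled knockout. All 4 of the latter lay under the control mean, but the groups overlapped, and the log2 fold change was -0.43 ± 0.26. It was -0.25 without labelled knockout 3 and -0.19 with the muscle covariate.

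Fgfr3 (chromosome 5, 33721674 to 33737068), which can also pair with beta-klotho, ranged from 6.84 to 10.8 CPM in the control and from 7.33 to 12.6 CPM in the mice labelled knockout. Its log2 fold change was 0.22 ± 0.19 and became -0.02 with the muscle covariate. Exons of Fgfr3 overlap 998 bases of the opposite-strand gene G630022F23Rik, and whether counting used the strand was not given in the sources used here. Its values are therefore uncertain. The same holds for Fgfr1, at 164 bases, and Fgf10, at 123 bases. Fgfr2 shares 314 exonic bases with Ctbp2 on its own strand. The span of Fgfr2 given above is that of the annotation, and its RefSeq promoter, at 130266759 to 130267058, lies far inside it.

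Fgfr4 (chromosome 13, 55152640 to 55168759), the main FGF receptor of the liver, had 3, 2, 1 and 4 counts in control mice 1 to 4 and 12, 17, 15 and 4 counts in the mice labelled knockout 1 to 4. It was the 1 gene of the 10 that missed the filter on low counts. Labelled knockout 4 was among the controls at 0.24 CPM, where the other 3 of its group stood between 0.948 and 1.14 CPM and the control between 0.0797 and 0.334 CPM. This mouse also had the lowest muscle marker sum of its group. The part of muscle content in the Fgfr4 counts was not tested. Without the filter the log2 fold change was 2.15 ± 0.65 (SE).

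**Figure D3:**
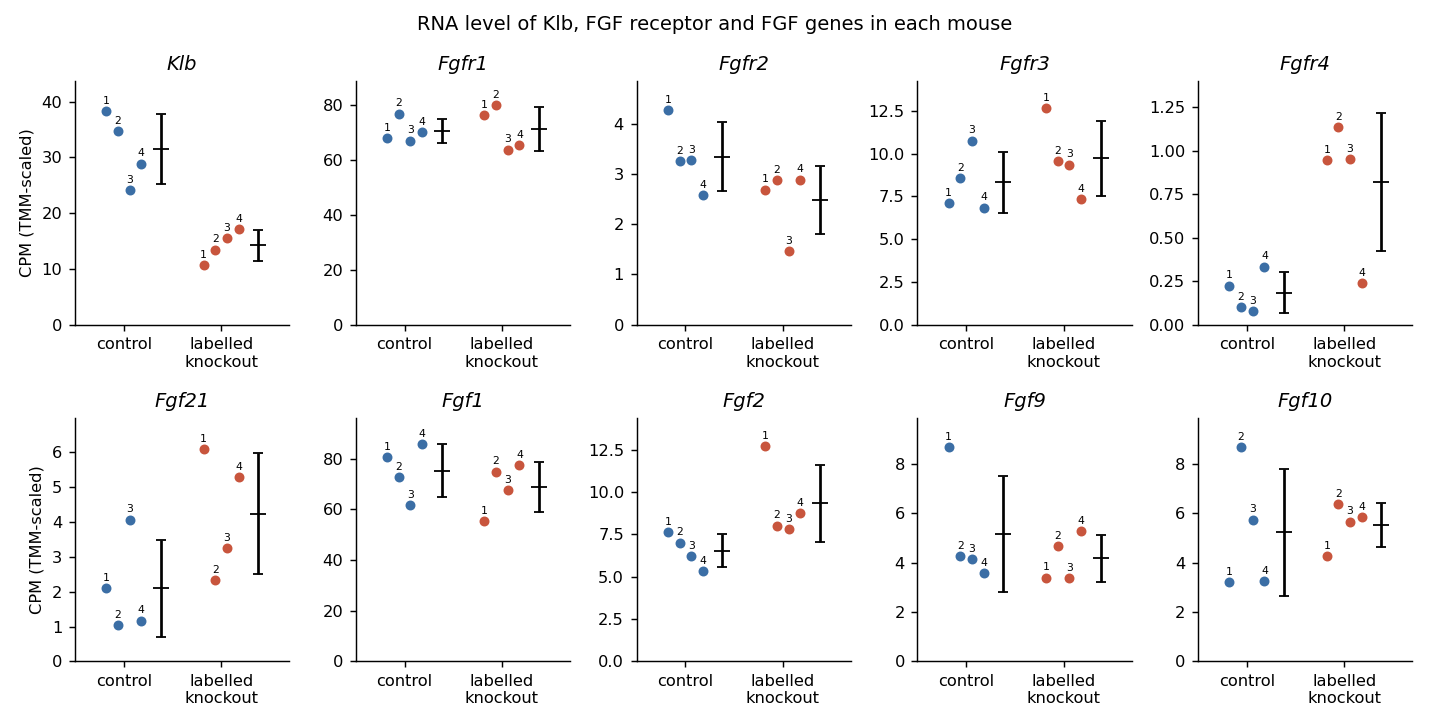
RNA level of each of the 10 genes (CPM, axes from 0) in the 4 control mice (blue) and the 4 mice labelled knockout (red). Numbers are mouse numbers and bars the mean ± SD of 4. The groups lie apart for Klb and Fgf2 and overlap for the other 8 genes.

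Fgf21 (chromosome 7, 45613886 to 45615490, minus strand), the hormone that needs Klb, had a higher mean in the mice labelled knockout, at 4.24 against 2.10 CPM. It stood at 2.10, 1.05, 4.06 and 1.17 CPM in control mice 1 to 4. In the mice labelled knockout 1 to 4 it stood at 6.08, 2.34, 3.25 and 5.29 CPM. All 4 of these lay above the control mean of 2.10 CPM, but control 3 lay above 2 of them, so the groups overlapped. The counts were low, 14 to 51 per library in the control and 35 to 88 in the mice labelled knockout. The log2 fold change was 1.04 ± 0.44 (SE), and it was 1.57 without control 3 and 0.78 without control 2. The share of Fgf21 in the summed level per length of the 5 ligands was 11.5 ± 7.9% in the control and 21.5 ± 8.3% in the mice labelled knockout.

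Fgf1 (chromosome 18, 38838673 to 38929472, minus strand), which in mouse white fat is induced through PPARG, was the most abundant ligand in each of the 8 libraries. It stood at 80.5, 72.7, 61.8 and 85.8 CPM in the control and 55.2, 74.9, 67.6 and 77.4 CPM in the mice labelled knockout. The groups overlapped, and the log2 fold change was -0.13 ± 0.13. Its share of the 5 ligands ran from 60.7 to 81.8% in the control and from 50.4 to 69.4% in the mice labelled knockout.

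Fgf2 (chromosome 3, 37348346 to 37410108), the basic FGF that acts on endothelial cells and fibroblasts, was at 7.64, 7.01, 6.22 and 5.34 CPM in the control. It was at 12.7, 8.03, 7.83 and 8.78 CPM in the mice labelled knockout. The groups did not overlap, though the gap between 7.64 and 7.83 CPM was small. The log2 fold change was 0.50 ± 0.19 and fell to 0.32 without labelled knockout 1. Fgf2 shares 640 exonic bases with the antisense gene Nudt6, which stood at 22.6 ± 3.1 against 20.3 ± 3.23 CPM, so reads of the 2 genes may be mixed. Fgf2 also shares 255 exonic bases with Gm43439 on its own strand. The endothelial markers summed to 983 to 1083 CPM in the mice labelled knockout, within the control range of 852 to 1304 CPM. The fibroblast and progenitor markers summed to 521 to 584 against 442 to 563 CPM, and the macrophage markers to 125 to 222 against 117 to 166 CPM. The median log2 fold change was 0.03 for the endothelial, 0.00 for the fibroblast and progenitor, and 0.39 for the macrophage markers. All 12 macrophage markers lay above 0, where 49.7% of all tested genes lay below 0. The part of these cell types in the Fgf2 difference was not tested.

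Fgf9 (chromosome 14, 58070547 to 58112720), a paracrine ligand, was at 8.68, 4.26, 4.14 and 3.59 CPM in the control and 3.40, 4.68, 3.37 and 5.29 CPM in the mice labelled knockout. Control 1 stood apart from the other 7 mice. The log2 fold change was -0.30 ± 0.29, and it was 0.07 without that mouse. Fgf10 (chromosome 13, 118669791 to 118792115), which fat progenitors make and which is needed for fat depots to form in mice, was at 3.22, 8.67, 5.74 and 3.25 CPM in the control. In the mice labelled knockout it was at 4.27, 6.36, 5.66 and 5.83 CPM, within the control range. Its log2 fold change was 0.06 ± 0.30, and it was 0.44 without control 2.

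Across all genes, 0.385% of the 13756 tested passed an adjusted p of 0.05 (edgeR's quasi-likelihood test with Benjamini-Hochberg adjustment). Of the 10 genes 9 were tested and 1 passed, Klb, for which the family was chosen, so nothing is read from this count. It did not pass with the muscle covariate or without control 2, labelled knockout 1 or labelled knockout 3. The lower genes that passed were 0.0945% of those tested. Groups that did not overlap occurred in 8.10% of all tested genes, 4.10% above and 4.00% below the control. Among the 9 they occurred for 2, Klb below and Fgf2 above the control. The median log2 fold change of the 9 was 0.02, against 0.00 over all genes tested, with 5 above and 4 below 0.

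**Figure D4:**
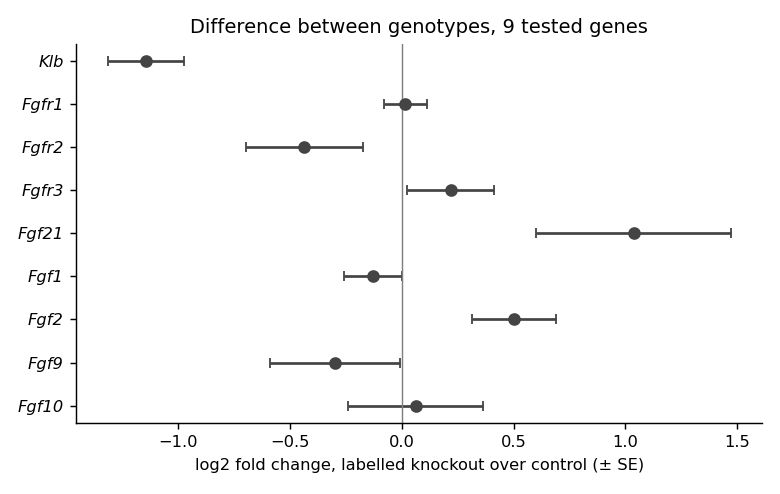
Log2 fold change of the 9 tested genes, the mice labelled knockout over the control, with its SE. Klb lies lowest at -1.14 and Fgf21 highest at 1.04, and the other 7 lie between -0.43 and 0.50.

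The rest of the pathway was described from 6 gene lists drawn up with earlier results of these data known. Over all genes, 15.2% of those tested were at an unadjusted p under 0.05 in edgeR, 2.40% of those with an adjusted p passed in DESeq2, and 49.7% had a log2 fold change below 0, and the counts below are to be read against these shares. Among 17 other FGF ligands 6 had no count in any library and 4 were tested, and 0 passed (edgeR, 1 at an unadjusted p under 0.05, 0 in DESeq2). The 2 most abundant were Fgf11, at 7.21 ± 0.443 against 7.80 ± 0.827 CPM, and Fgf13, at 6.62 ± 1.82 against 3.90 ± 1.61 CPM. Both encode intracellular FGF homologues that are not secreted and act on sodium channels. Fgf13 had an edgeR adjusted p of 0.285 at a log2 difference of 0.74 ± 0.30 (SE).

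Of 13 tested genes for co-receptors and ligand handling 0 passed in edgeR (5 at an unadjusted p under 0.05), and 1, the heparan sulfate carrier Sdc2, passed in DESeq2 (log2 difference 0.72, adjusted p = 0.0286). Sdc2 was named after its value was seen. The median of the list was 0.06. Its most abundant genes were Sdc4, at 122 ± 6.47 against 103 ± 11.4 CPM, and Gpc1, at 55.6 ± 11.9 against 45.6 ± 11.9 CPM, both cell-surface heparan sulfate proteoglycans that hold FGFs at the receptor. Exons of Gpc1 overlap a gene on the opposite strand.

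All 24 genes of the relay from receptor to ERK were tested. Their log2 fold changes ran from -0.25 to 0.70 around a median of -0.03, and 0 passed in edgeR (2 at an unadjusted p under 0.05). Pik3r1, a regulatory subunit of PI3 kinase that lay at the upper end, passed in DESeq2 (adjusted p = 0.0395) and was named after its value was seen. The phosphatase gene Ptpn11, which links FRS2 to the RAS pathway, was at 186 ± 24.1 against 221 ± 31.5 CPM, and the ERK kinase kinase gene Map2k2 at 118 ± 4.29 against 120 ± 3.9 CPM.

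Genes induced by ERK signalling, which include the feedback inhibitors of the Sprouty and DUSP families, went both ways. Of 17 tested 8 lay above and 9 below 0, with a median of -0.09, and 0 passed in edgeR (3 at an unadjusted p under 0.05). The cyclin gene Ccnd1 was at 29.7 ± 4.52 against 40.6 ± 3.11 CPM (log2 difference -0.45 ± 0.11). Its adjusted p was 0.128 in edgeR and 0.0296 in DESeq2. Its exons overlap a gene on the opposite strand. Dusp6, which encodes an ERK phosphatase that ERK itself induces, was at 30.6 ± 4.09 against 35.0 ± 4.96 CPM. The log2 fold change farthest from 0 was that of the immediate early gene Fos, at 1.21 ± 0.39 (edgeR adjusted p = 0.202), and Fos was named after its value was seen.

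Of 10 genes that respond to FGF21 in fat cells 8 lay below 0, with a median of -0.34, and 0 passed in edgeR (3 at an unadjusted p under 0.05). Most of them also mark brown fat cells or their activation in the cold. Elovl3, a fatty acid elongase gene, was the 1 that passed in DESeq2, at an adjusted p of 0.00513, and was named after its value was seen. Ucp1, the uncoupling protein gene, was at 9303 ± 1473 against 11441 ± 1272 CPM and the lipid droplet gene Cidea at 2066 ± 228 against 2362 ± 124 CPM. The 10 brown fat cell markers, which share 5 genes with this list, had a median of -0.27.

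Among 17 tested genes reported to regulate Fgf21 or Klb, 2 passed in edgeR (6 at an unadjusted p under 0.05) and 3 in DESeq2, and both of the former were known from the earlier results. Pparg was higher, by 0.52 ± 0.09 on the log2 scale (adjusted p = 0.0328). Ppara, the nuclear receptor through which fasting induces Fgf21 in the liver, was lower, at a log2 difference of -1.07 ± 0.19 (adjusted p = 0.0441). It stood at 24.7 to 44.0 CPM in the mice labelled knockout and 50.1 to 83.4 CPM in the control. Atf4, which induces Fgf21 under stress through C/EBP-ATF elements, was at 226 ± 54.7 against 152 ± 32.7 CPM (log2 difference 0.57 ± 0.20). The groups overlapped, and its edgeR adjusted p was 0.224. Atf2, a further ATF family gene of the list, had a lower mean, at 49.4 ± 3.01 against 57.7 ± 5.22 CPM (log2 difference -0.23 ± 0.09). Its groups also overlapped, and its edgeR adjusted p was 0.272. Of the C/EBP family genes, Cebpa had a lower mean, at 315 ± 49.2 against 439 ± 56.2 CPM (log2 difference -0.48 ± 0.13). So did Cebpb, at 173 ± 14.3 against 197 ± 17.8 CPM (-0.19 ± 0.10). Their edgeR adjusted p were 0.148 and 0.391, and Cebpa passed in DESeq2 at 0.0344. Exons of both overlap a gene on the opposite strand. Ddit3, a further C/EBP family gene of the list, had a higher mean, at 44.1 ± 6.09 against 37.2 ± 6.32 CPM (log2 difference 0.25 ± 0.13). Its edgeR adjusted p was 0.408, and its exons overlap genes on the opposite strand. A further gene ID of the same symbol shares 105 exonic bases on its own strand, and the row with more counts was used. Atf4, Atf2, Cebpa, Cebpb and Ddit3 were named after their values were seen, for the element printed above.

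**Figure D5:**
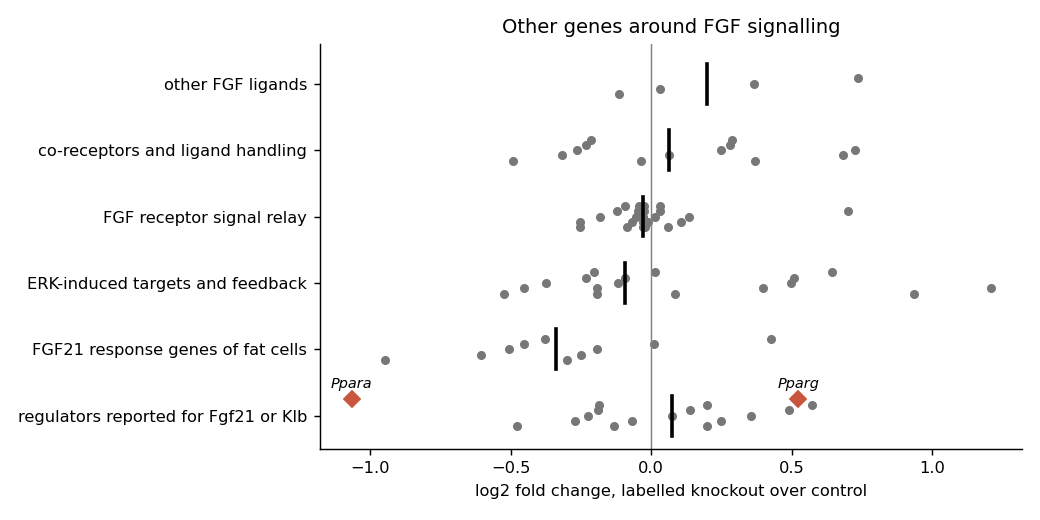
Log2 fold changes of the tested genes of 6 lists around FGF signalling, the mice labelled knockout over the control. Dots are genes, black lines list medians and red diamonds genes past an adjusted p of 0.05. The 2 diamonds are Ppara at -1.07 and Pparg at 0.52, and the list median nearest 0 is that of the relay, at -0.03.

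The genes whose pattern was most like that of Klb were found by the Pearson correlation of log2 CPM over the 8 libraries. They were Pde3b (r = 0.987), Cdkl2 (0.984), Mprip (0.982), Pogk (0.973) and Ipo9 (0.972), with log2 fold changes from -0.55 to -0.21. Of the 13755 other genes tested 181 had a correlation above 0.9, and since the groups lie apart for Klb this pattern holds the genotype difference. After the group means were subtracted the highest values were those of Eif2ak1 (r = 0.978), Bak1 (0.974), Rnf14 (0.967), Akip1 (0.96) and Degs1 (0.96), and 69 genes were above 0.9. The 5 genes named by one measure and the 5 by the other were all different, although Pde3b, Cdkl2, Mprip and Pogk were above 0.9 by both. Exons of Cdkl2, Mprip, Pogk, Eif2ak1, Bak1 and Akip1 overlap genes on the opposite strand. All values come from the same 8 libraries and scaling, and no p is given.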

How the data were processed

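RNA was measured in 8 brown fat libraries, 4 per genotype, grouped by the sample titles, which name separate mice. Per the labels' protocols, stranded mRNA libraries were made. The submitters' processing notes list HISAT2 and featureCounts (Subread) beside FastQC, Trimmomatic and SAMtools, on GRCm38. Versions, annotation and whether counting used the strand were not given in the sources used here. Deposited by the authors were raw read counts per gene, in whole numbers.

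From these counts, CPM were computed with TMM-scaled libraries. A floor of 3 counts corresponds to 0.156 to 0.245 CPM by total counts, without TMM factors, and covers counting error only. Genes passing filterByExpr (13756) were tested with edgeR 4.0.16 (limma 3.58.1, R 4.3.3) on genotype, with Benjamini-Hochberg adjustment over all of them and a threshold of 0.05. The SE is the size of the log2 fold change over the square root of F. The test was checked on simulated counts. Levels per length use the union of exons in GENCODE M21, on that build, where 99.8% of the gene IDs were found. All pairs of libraries differed by more than sampling noise, with a chi-square of 10.4 to 79.0 for each degree of freedom.

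The members and the gene lists were chosen with earlier results of these data known. Named by rule are the 10 members and, per list, the genes past the threshold (up to 4) or else the 2 most abundant. So are the 5 genes most like Klb by each measure. Outside this rule, Sdc2, Pik3r1, Fos, Elovl3, Cox8b, Atf4, Atf2, Cebpa, Cebpb and Ddit3 were named after their values were seen. Alternatives were DESeq2 1.42.0, RLE and total count scaling, 2 other filters, the mouse number as a block, a muscle covariate, the longest transcript as length, and each library left out.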

Additional observations from a re-analysis of the deposited data

Results flagged for a closer look

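In a group of 4 mice 1 value was looked for that lay far from the other 3, by Dixon's ratio of its gap to the group's range. This was met in 2 of 20 groups, where chance gives about 1 in 20. Fgf9 in control 1 was at 8.68 CPM, against 3.59 to 4.26 CPM in the other control mice. Fgfr2 in labelled knockout 3 was at 1.46 CPM, against 2.69 to 2.89 CPM in the rest of its group. Control 1 also had the lowest muscle marker sum of the 8 libraries, at 5243 CPM.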

How the results depend on the processing

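The count of 53 genes passing in edgeR was 187 with no filter on low counts, 362 in DESeq2, 155 with the mouse number as a replicate block, 21 with the muscle score as a covariate, and from 24 to 75 with 1 library left out. It was lowest without labelled knockout 1 (24), labelled knockout 3 (26), control 2 (28), control 4 (32) and control 1 (34). Of the 10 genes 1 passed, Klb, in each of these fits except with the muscle covariate, where 0 passed (21 genes in all), and without control 2, labelled knockout 1 or labelled knockout 3. With 1 library left out the number that passed was therefore 0 to 1. The log2 fold change of Klb stayed between -1.25 and -0.98 over the 15 alternatives. Klb was chosen for this difference, so these counts describe its call and support nothing. The cause of the lost calls was not tested, and a fit without 1 library has fewer samples.

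The mouse numbers were not shown to pair the samples: deviations of same-numbered mice from their group means correlated at 0.02, 0.40, 0.03 and 0.17, and 2 of 4 correlated best with their own number. With the block Klb was at -1.14. The log2 fold changes of Fgf1, Fgf2, Fgf21, Fgfr2 and Klb kept their sign under all 15 alternatives, while those of Fgf10 (4 alternatives), Fgfr1 (5), Fgf9 (2) and Fgfr3 (1) did not. That of Fgf9 was 0.27 with the muscle covariate. With the longest transcript as length the control level per length was 18.9 for Fgf1, 14.0 for Fgfr1, 8.89 for Klb, 1.96 for Fgfr3 and 0.755 CPM per kb for Fgfr2, so Fgfr1 then lay further above Klb. This follows from the shorter length. Depth limits Fgfr4, with 1 to 4 counts per control library.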
